A study of Mus musculus with 9 samples.

Results

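The 34 genes described here encode the enzymes of glycolysis, the carriers that bring glucose into a cell and move lactate across its membrane, the oxygen-sensing machinery, and several transcripts that rise when oxygen is short. They were listed by symbol, and all 34 were found in the table of 18571 genes and were among the 14696 genes with enough counts to be tested. Poly-A RNA had been sequenced from microglia of mouse cortex and hippocampus, captured by immunopanning on an antibody to CD45, a protein shared by leukocytes. All mice were of the C57BL6/j background and 9 months old, and per the labels all had been gavaged with tamoxifen at 0.1 mg/g over 5 days when 8 months old. The WT group had no transgene named in its labels. The APP/PS1 group carried the amyloid transgenes and no Cre or floxed allele in its labels. The third group, Cx43 cKO or cKO for short, was APP/PS1:Cx3cr1-CreER:Cx43-flox/flox, in which a tamoxifen-activated Cre made from the Cx3cr1 locus deletes Cx43 (encoded by Gja1). Neither control group therefore matches the cKO group in Cre or floxed alleles. Each of the 3 groups had 3 libraries, and the labels do not say whether these came from separate animals, so the p-values measure the spread between these libraries only, which was small (biological coefficient of variation 3.14%).

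Glycolysis splits glucose into pyruvate with a small yield of ATP and needs no oxygen. Pyruvate then enters the mitochondria or is reduced to lactate, which leaves the cell. When oxygen falls, the prolyl hydroxylases of the Egln family act less on the transcription factor HIF-1α, which accumulates and raises transcription of many glycolytic genes, and microglia and other macrophages also use more glycolysis when activated by inflammatory stimuli.

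Libraries held 18907681 to 19565354 estimated counts, and no pair within a group agreed within sampling noise. The targeted gene Gja1 stood at 34, 31.6 and 35.1 CPM (the count relative to a scaled library size) in WT libraries 1 to 3, at 39.7, 37.0 and 42.5 in APP/PS1, and at 27.2, 25.3 and 28.1 in cKO. The labels do not say which exons the floxed allele removes. The Cx3cr1 transcript, from the locus that holds the Cre, averaged 2231 CPM in APP/PS1 and 1214 in cKO. All 12 microglial markers, Cx3cr1 among them, were detected. Their summed level was 20433 to 20787 CPM in WT libraries, 24734 to 25121 in APP/PS1 and 21464 to 21742 in cKO. Single markers went both ways. In APP/PS1 against WT 7 of them were called higher and 3 lower. The counts were 2 and 7 in cKO against APP/PS1 and 7 and 5 in cKO against WT. Markers of other cells moved with the groups. None of 15 neutrophil and monocyte markers was at 0. Their sum was 3946 to 3999.7 CPM in WT libraries, 1503 to 1571 in APP/PS1 and 10284 to 10426 in cKO. The 14 astrocyte markers summed to 805 to 812, 941 to 969 and 755 to 761 CPM. They include Gja1, the targeted gene, so its fall in cKO is also part of that sum. The sum of 11 erythroid markers was 1326 to 1379.6 CPM in WT libraries, 333 to 353 in APP/PS1 and 177 to 188 in cKO, and that of 7 border macrophage markers was 539 to 551, 407 to 421 and 349 to 366. Early response genes, which are induced within minutes by handling, summed to 29605 to 31197 CPM in WT libraries, 24011 to 25271 in APP/PS1 and 25163 to 26396 in cKO. The part of these cells and of handling in the results below was not tested, and in bulk RNA fewer cells of a type and less RNA per cell cannot be told apart. Ddx3y, on the Y chromosome, ranged from 204 to 248 CPM in WT and APP/PS1 libraries and from 0 to 0.104 in cKO, so that sex and Cx43 genotype cannot be told apart in either comparison with the cKO group.

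Most of the 34 genes were higher in both amyloid groups than in WT on the main scale, although on TPM, described next, their median in APP/PS1 was -0.04. In APP/PS1 against WT, 23 rose and 7 fell at an adjusted p under 0.05, with a median log2 change of 0.35. Over all tested genes 59.0% were called, 26.9% higher and 32.0% lower, and the median was -0.04. In cKO against APP/PS1, 20 rose and 8 fell, with a median of 0.23, against 55.0% of all genes called, 27.3% higher and 27.7% lower, and a median of -0.01. In cKO against WT, 27 rose and 0 fell, with a median of 0.51, against 47.7% of all genes called, 24.7% higher and 23.0% lower, and a median of -0.01. The count of 0 came from edgeR, and DESeq2 and limma-voom also gave 0, while 2 members were lower at an unadjusted p under 0.05. With the replicate number as a block 2 were called lower, Pfkm and Pfkfb4. Leaving out WT library 1 also gave 2. Leaving out WT library 2 gave 1, as did offsets for GC content and length. The 3 comparisons share libraries and are not independent of each other. Groups did not overlap in CPM for 31 of the 34 members in APP/PS1 against WT (63.5% of all genes), for 27 in cKO against APP/PS1 (59.7%) and for 29 in cKO against WT (54.6%). Called changes of at least 1.5-fold were seen in 12, 6 and 16 members, against 19.3%, 17.5% and 12.8% of all genes, and of at least 2-fold in 6, 1 and 8 members, against 8.55%, 7.65% and 5.19%. The members' counts in cKO against APP/PS1 were thus near or below those of all genes at these sizes.

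These directions are relative to the scaling. On log2(TPM + 1), where TPM (transcript abundance) counts each gene per length within the total of its own library, the median of all genes shifted by -0.35, 0.14 and -0.17 in the 3 comparisons in the order given, and with library totals alone by -0.17, 0.02 and -0.12. The members called higher and lower were then 10 and 14, 28 and 3, and 22 and 7 on TPM, and 21 and 9, 20 and 7, and 24 and 4 with library totals. Of all genes, 11.4% were called higher and 65.9% lower on TPM in the first comparison, 46.6% and 15.3% in the second and 12.2% and 49.4% in the third. With library totals the shares were 19.6% and 46.9%, 30.6% and 25.2%, and 16.7% and 38.1%. Relative to the median of all genes the members' median stood 0.39, 0.24 and 0.52 higher on the main scale and 0.31, 0.27 and 0.48 higher on TPM. All 23 members called higher in APP/PS1 were above the median of all genes on TPM too, although 7 of them, named where they are described, had a TPM change below 0. Another 6 of the 23 (Pfkl, Aldoa, Pgam1, Pkm, Ldha and Ldhb) had TPM changes of 0.03 to 0.10 that missed the threshold, so that 10 were called higher on both scales. In cKO against WT the 7 members called lower on TPM were Hk1, Pfkm, Pfkfb4, Eno2, Slc16a1, Bnip3l and Ankrd37.

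Sizes moved with the scale too. Of the 10 members called higher in APP/PS1 on TPM, Hif1a (0.62), Slc2a1 (0.13), Slc2a6 (0.30), Aldoc (0.21), Gapdh (0.21) and Pgk1 (0.74) had TPM changes more than 1.5 times smaller than those given below. For cKO against APP/PS1, TPM gave larger rises of Egln3 (0.35), Pfkl (0.41), Aldoa (0.43), Gapdh (0.53), Pgam1 (0.51), Eno1 (0.57) and Pdk3 (0.35) and smaller falls of Aldoc (-0.29) and Bnip3 (-0.19). In cKO against WT, TPM gave smaller rises of Egln1 (0.15), Slc2a1 (0.26), Hk2 (0.24), Hk3 (0.28), Gpi1 (0.34) and Pdk3 (0.20), and Pfkfb3, Aldoc, Ldhb and Pdk1 were not called. With offsets for GC content and length, the rises in APP/PS1 were larger for Egln1 (0.53), Hk2 (0.25) and Slc16a3 (0.47) and smaller for Ldha (0.27), Pdk3 (0.15, not called) and Bnip3l (0.14). The same offsets gave a larger fall of Slc2a1 (-0.16), smaller falls of Tpi1 (-0.12) and Bnip3 (-0.15) and smaller rises of Pfkl (0.09) and Pfkfb4 (0.21) in cKO against APP/PS1.

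**Figure D1:**
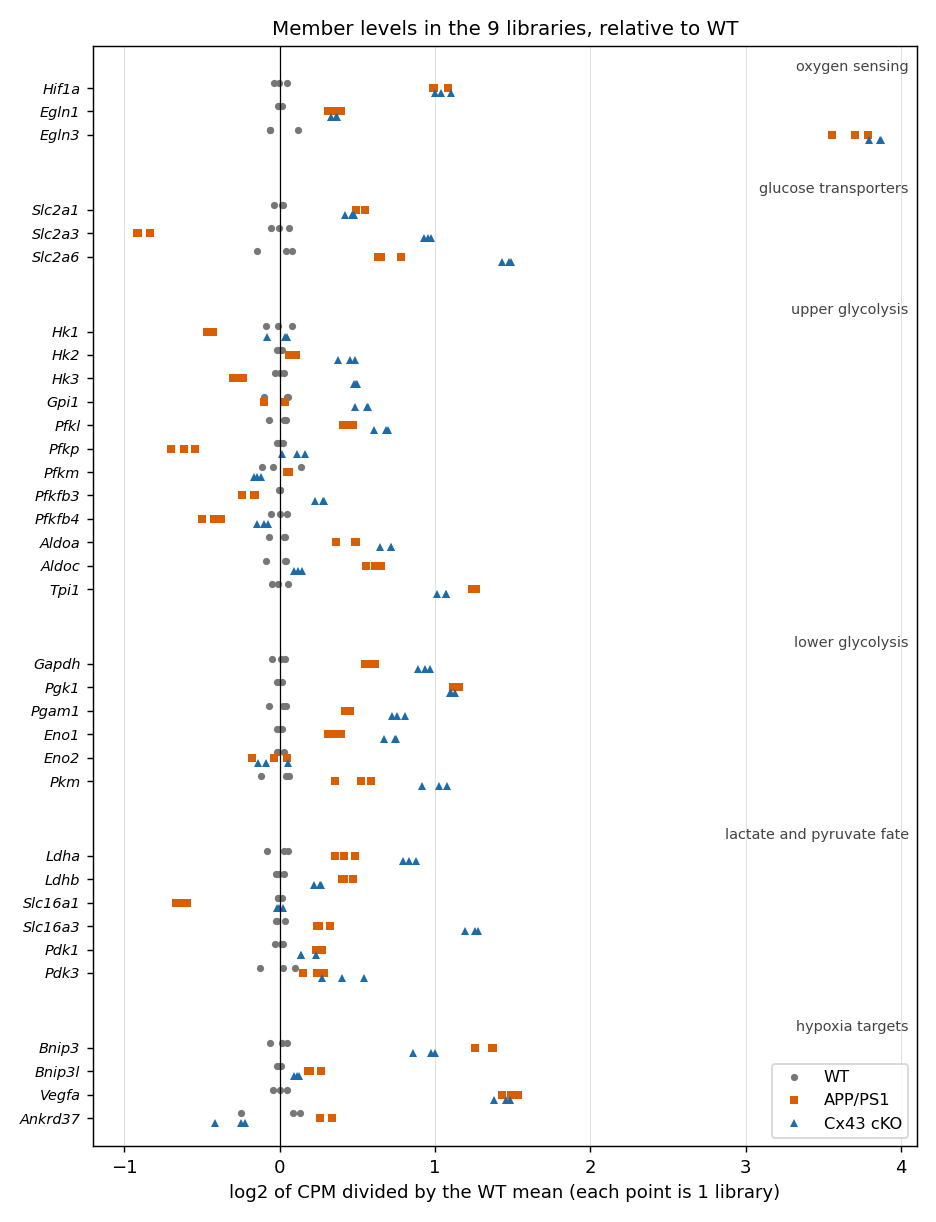
Each point is 1 library of WT (circles), APP/PS1 (squares) or cKO (triangles), placed by the log2 of its CPM over the WT mean, for the 34 members in rows by role. Egln3 lies farthest to the right in both amyloid groups, and Slc2a3 lies left of WT in APP/PS1 and right of it in cKO. On TPM, 7 of the 23 members called higher in APP/PS1 (Egln1, Hk2, Eno1, Slc16a3, Pdk1, Pdk3 and Bnip3l) were below WT.

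The oxygen-sensing genes rose in APP/PS1, Egln1 not on TPM, and on the main scale Hif1a and Egln1 were not called in cKO against APP/PS1. Hif1a, which encodes the oxygen-regulated subunit of HIF-1, stood at 234, 221 and 225 CPM in WT libraries, at 479, 449 and 451 in APP/PS1 and at 486, 464 and 452 in cKO. Both amyloid groups were clear of WT and overlapped each other. The log2 change was 1.02 ± 0.03 (SE, n = 3 libraries a group, adjusted p = 1.98e-19) in APP/PS1 against WT and 0.02 ± 0.03 (adjusted p = 0.582) in cKO against APP/PS1. The latter became 0.23 on TPM (adjusted p = 0.000343) and 0.06 with offsets for GC content and length (adjusted p = 0.0453). The transcript is not a measure of HIF-1 protein, whose level is set mainly by its breakdown. Egln3, a hydroxylase that is itself induced through HIF, went from 3.15, 3.15 and 3.58 CPM in WT libraries to 42.9, 38.7 and 45.4 in the APP/PS1 libraries and 48.0, 45.6 and 48.2 in cKO. This was the largest change among the members, with a log2 value of 3.68 ± 0.09 in APP/PS1 against WT (adjusted p = 1.07e-22). The further 0.16 ± 0.05 in cKO against APP/PS1 (adjusted p = 0.0135) lost its call without APP/PS1 library 2 (0.10, adjusted p = 0.147), without cKO library 3 (0.15, adjusted p = 0.0547) or with DESeq2 (adjusted p = 0.0609). Egln1, the hydroxylase that acts on HIF-1α in most cells with normal oxygen, averaged 45.2 CPM in WT libraries, 57.6 in APP/PS1 and 57.8 in cKO. Its log2 change in APP/PS1 against WT was 0.35 ± 0.04 (adjusted p = 1.10e-07), which became -0.04 on TPM. Egln1 was called in opposite directions by scale in cKO against APP/PS1, at 0.19 on TPM (adjusted p = 0.000728) and -0.13 with GC and length offsets (adjusted p = 0.00802).

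Of the 4 genes listed as hypoxia targets, 3 rose in APP/PS1, by very different amounts (Bnip3l not on TPM). Vegfa, the main growth factor for blood vessels, had 24.5, 23.7 and 23.0 CPM in WT libraries, 68.6, 66.6 and 63.9 in APP/PS1 and 65.0, 66.4 and 61.7 in cKO. Bnip3, a mitochondrial receptor that marks mitochondria for removal by autophagy, had 26.4, 25.8 and 24.4 CPM in WT libraries, 65.9, 61.1 and 66.1 in APP/PS1 and 50.1, 46.3 and 51.1 in cKO. All 6 amyloid libraries were therefore above the WT libraries for both genes, and for Bnip3 the cKO libraries lay between the other groups. In APP/PS1 against WT the log2 change of Vegfa was 1.48 ± 0.05 (adjusted p = 3.11e-19) and that of Bnip3 1.34 ± 0.05 (adjusted p = 9.22e-18). In cKO against APP/PS1, Bnip3 fell by 0.39 ± 0.05 on the log2 scale (adjusted p = 1.32e-07; -0.19 on TPM and -0.15 with GC and length offsets), while the Vegfa value was -0.04 ± 0.04 (adjusted p = 0.422). This Vegfa value was called in opposite directions by scale, at 0.15 on TPM (adjusted p = 0.0130) and -0.12 with GC and length offsets (adjusted p = 0.0124). Bnip3l, a related receptor, ranged from 161 to 164 CPM in WT and from 185 to 196 in APP/PS1, a log2 change of 0.22 ± 0.03 (adjusted p = 1.92e-06) that turned to -0.18 on TPM. In cKO its 174 to 178 CPM gave a log2 change of -0.11 against APP/PS1, which lost its call without APP/PS1 library 3 (-0.08, adjusted p = 0.0619), was -0.03 with GC and length offsets (adjusted p = 0.490) and turned to 0.09 on TPM. Ankrd37, a small ankyrin-repeat protein gene, was among the least abundant members, at 2.76 to 3.59 CPM in WT libraries, 3.93 to 4.15 in APP/PS1 and 2.46 to 2.81 in cKO. Its log2 change of -0.58 ± 0.15 in cKO against APP/PS1 (adjusted p = 0.00185) lost its call with offsets for GC content and length (-0.18, adjusted p = 0.346).

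HIF-1 binds DNA at hypoxia response elements, whose core letters are ACGTG or GCGTG, usually near the start of the gene. RefSeq promoter entries on the GRCm38.p6 build were found for 32 of the 34 members. Slc2a3 and Bnip3l had no entry. In the 250 bases before the start, ACGTG occurred on either strand for 19 of these 32 genes (59.4%), against 18.5% of all genes and 24.2% of the tested genes with an entry. GCGTG occurred for 21 of 32 (65.6%), against 30.9% and 47.2%. The palindrome CACGTG, which contains ACGTG and is also the E-box read by other factors, occurred for 6 of 32 (18.8%), against 6.86% and 9.44%. Several members have more than 1 entry, and per entry ACGTG was found in 22 of 46 (47.8%), against 16.6% of all entries and 20.5% of those of tested genes. By call in APP/PS1 against WT, ACGTG was present in 14 of 22 members that rose, 3 of 6 that fell and 2 of 4 that were not called. The windows of the 5 members with the largest rise in APP/PS1 against WT are shown 5′ to 3′ on the strand of the gene, ending at the last base before the start, with ACGTG, or CACGT where the match is on the other strand, in capitals.
Egln3, chr12:54203875-54204124, minus strand: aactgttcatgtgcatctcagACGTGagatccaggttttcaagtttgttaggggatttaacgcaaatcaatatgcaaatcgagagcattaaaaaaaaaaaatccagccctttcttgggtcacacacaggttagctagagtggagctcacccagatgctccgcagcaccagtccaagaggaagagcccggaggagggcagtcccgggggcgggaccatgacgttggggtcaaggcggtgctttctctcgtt
Bnip3, chr7:138909507-138909756, minus strand: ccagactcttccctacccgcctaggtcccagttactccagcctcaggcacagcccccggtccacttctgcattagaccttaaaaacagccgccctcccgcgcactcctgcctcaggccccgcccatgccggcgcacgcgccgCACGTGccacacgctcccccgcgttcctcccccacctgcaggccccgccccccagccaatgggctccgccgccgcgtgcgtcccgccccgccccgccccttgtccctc
Pgk1, chrX:106186850-106187099, plus strand: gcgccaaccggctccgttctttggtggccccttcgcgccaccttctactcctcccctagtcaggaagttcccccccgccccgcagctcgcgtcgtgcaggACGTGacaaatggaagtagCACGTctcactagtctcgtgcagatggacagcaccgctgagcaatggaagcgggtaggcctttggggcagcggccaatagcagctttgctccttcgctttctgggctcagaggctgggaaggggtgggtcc
Vegfa, chr17:46032378-46032627, minus strand: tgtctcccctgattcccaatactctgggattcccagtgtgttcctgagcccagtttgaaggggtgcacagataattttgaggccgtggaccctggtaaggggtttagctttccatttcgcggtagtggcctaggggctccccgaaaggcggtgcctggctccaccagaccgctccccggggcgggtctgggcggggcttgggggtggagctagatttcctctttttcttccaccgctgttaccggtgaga
Vegfa, chr17:46025164-46025413, minus strand: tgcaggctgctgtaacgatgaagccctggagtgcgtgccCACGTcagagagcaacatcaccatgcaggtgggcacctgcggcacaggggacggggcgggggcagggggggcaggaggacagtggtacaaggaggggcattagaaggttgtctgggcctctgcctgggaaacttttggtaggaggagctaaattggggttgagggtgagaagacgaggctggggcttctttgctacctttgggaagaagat
Tpi1, chr6:124814159-124814408, minus strand: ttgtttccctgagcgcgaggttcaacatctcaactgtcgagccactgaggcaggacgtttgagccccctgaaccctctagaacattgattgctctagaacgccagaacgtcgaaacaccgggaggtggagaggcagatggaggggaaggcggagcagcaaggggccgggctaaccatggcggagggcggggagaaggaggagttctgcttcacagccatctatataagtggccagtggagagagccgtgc

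The match of Egln3 began 229 bases before the start and those of Pgk1 150 and 131 bases before it. In Bnip3 the matches on the strands overlapped as a palindrome from 108 bases before the start. For Vegfa the match lay 211 bases before the start of the second entry, and the first entry had none. The second start lies downstream of the first, so its window lies inside the gene as it runs from the first start. Vegfa counts among the 19 genes with ACGTG, and among the 14 that rose, only through that window. Tpi1, which rose more than Pgk1 in APP/PS1, had none in its window. A match shows only that the letters are there.

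Of the glucose carriers, one fell in APP/PS1 while the others rose. Slc2a1 encodes GLUT1, the main carrier of glucose into most cells, and it had by far the highest level of the carriers per length, 266 ± 5.35 TPM in WT (SD, n = 3). Its CPM values were 277, 289 and 287 in WT libraries, 399.8, 415 and 415 in APP/PS1 and 381, 393 and 396 in cKO. Both amyloid groups were above WT, with a log2 change of 0.53 ± 0.03 in APP/PS1 (adjusted p = 1.93e-14), or 0.13 on TPM (adjusted p = 0.00105). The small difference between cKO and APP/PS1, -0.07 ± 0.03 (adjusted p = 0.0392), turned to 0.13 on TPM and was -0.16 with GC and length offsets (adjusted p = 5.61e-07). It missed the threshold without WT library 3, APP/PS1 library 2 or 3, or cKO library 1 or 2 (adjusted p = 0.0519, 0.0991, 0.115, 0.148 and 0.0541). The call was also lost with DESeq2 size factors, the DESeq2 Wald test, library totals (-0.04) and no filter on low counts (adjusted p = 0.0511, 0.0779, 0.219 and 0.0510). Slc2a3 encodes GLUT3, a high-affinity carrier known from neurons and white blood cells. It had 44.3, 45.8 and 48.0 CPM in WT libraries, 24.4, 24.5 and 25.8 in APP/PS1 and 87.6, 90.5 and 89.4 in cKO. No group overlapped another, and APP/PS1 was lowest. The log2 change was -0.89 ± 0.05 in APP/PS1 against WT (adjusted p = 3.20e-14), 1.84 ± 0.05 in cKO against APP/PS1 (adjusted p = 8.52e-22), the largest among the members in that comparison, and 0.95 ± 0.04 in cKO against WT (adjusted p = 2.45e-16). Slc2a6, a carrier of the lysosomal membrane that inflammatory macrophages induce, rose in each comparison, from 11.5 to 13.4 CPM in WT libraries to 19.7 to 21.8 in the APP/PS1 libraries and 34.2 to 35.7 in cKO. Its log2 changes were 0.70 ± 0.07 in APP/PS1 against WT and 0.77 ± 0.06 in cKO against APP/PS1 (adjusted p = 3.41e-09 and 2.12e-11).

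The 12 genes of upper glycolysis, which invest ATP to make and split fructose bisphosphate, were divided in APP/PS1 against WT, where 5 rose and 5 fell. On TPM the rises of Pfkl and Aldoa shrank to 0.05 and 0.07 (adjusted p = 0.271 and 0.136) and Hk2, Gpi1 and Pfkm were called lower (-0.29, -0.40 and -0.32), which left 2 higher and 8 lower. In cKO against APP/PS1, 9 rose and 3 fell. Hexokinases trap glucose in the cell as glucose 6-phosphate. Hk1 had 60.1, 63.4 and 67.5 CPM in WT libraries, 46.1, 46.9 and 47.4 in APP/PS1 and 60.2, 65.3 and 65.8 in cKO, so that only APP/PS1 stood apart. Its log2 change was -0.44 ± 0.05 in APP/PS1 against WT (adjusted p = 1.37e-08), 0.45 ± 0.05 in cKO against APP/PS1 (adjusted p = 1.71e-08) and 0.00 ± 0.05 in cKO against WT (-0.20 on TPM). Hk3, a hexokinase of myeloid cells, had 102 to 106 CPM in WT libraries, 84.6 to 88.4 in APP/PS1 and 145 to 147 in cKO. Here the cKO libraries were above both other groups, by 0.76 ± 0.03 against APP/PS1 (adjusted p = 2.70e-16) and 0.49 ± 0.03 against WT (adjusted p = 2.57e-12) on the log2 scale. Hk2, a hexokinase induced by HIF, had 199 to 203 CPM in WT libraries and 209.7 to 216 in APP/PS1. The log2 change of 0.08 ± 0.03 (adjusted p = 0.0312) turned to -0.06 with library totals and -0.29 on TPM, grew to 0.25 with GC and length offsets (adjusted p = 7.47e-08), and missed the threshold without WT library 1 or 2 or APP/PS1 library 1 or 3 (0.07 to 0.08, adjusted p = 0.0605, 0.0932, 0.113 and 0.0780). In cKO, Hk2 rose to 260.4 to 282 CPM, by 0.36 ± 0.03 against APP/PS1 (adjusted p = 4.14e-10).

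Gpi1, which converts glucose 6-phosphate to fructose 6-phosphate, had 286, 316 and 318 CPM in WT libraries, 285, 313 and 312 in APP/PS1 and 428, 454 and 452 in cKO. WT and APP/PS1 overlapped, at a log2 change of -0.01 ± 0.04 (adjusted p = 0.818), whereas cKO was 0.55 ± 0.04 above APP/PS1 (adjusted p = 1.55e-08). The WT to APP/PS1 value of Gpi1 depended on the scale, at -0.15 with library totals, -0.40 on TPM and 0.08 with GC and length offsets. Phosphofructokinase commits sugar to glycolysis, and its subunit genes went apart. Pfkl, the liver-type subunit, rose from 77.5 to 83.6 CPM in WT libraries to 108 to 113 in the APP/PS1 libraries and 124 to 132 in cKO, with log2 changes of 0.44 ± 0.04 and 0.22 ± 0.04 at these steps (adjusted p = 2.38e-10 and 1.82e-05), of which the second became 0.41 on TPM and 0.09 with GC and length offsets. Pfkp, the platelet-type subunit, had 24.3, 24.6 and 23.9 CPM in WT libraries, 14.9, 15.8 and 16.6 in APP/PS1 and 24.5, 27.1 and 26.2 in cKO, with log2 changes of -0.62 ± 0.06 and 0.72 ± 0.06 (adjusted p = 4.05e-09 and 2.91e-10). APP/PS1 was thus the lowest group for Pfkp, and cKO overlapped WT (0.10 ± 0.06, adjusted p = 0.170). Pfkm, the muscle-type subunit, stayed between 21.9 and 27.0 CPM in all 9 libraries. Its log2 change in cKO against APP/PS1 was -0.19 ± 0.06 (adjusted p = 0.0114), which became 0.00 on TPM and missed the threshold with DESeq2 (adjusted p = 0.0582). Against WT it was -0.14 (adjusted p = 0.0653), -0.19 without WT library 1 (adjusted p = 0.0191), -0.25 with library totals (adjusted p = 0.00152) and -0.32 on TPM (adjusted p = 0.000650).

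Pfkfb3 and Pfkfb4 encode the bifunctional enzymes that make or remove fructose 2,6-bisphosphate, the strongest activator of phosphofructokinase. Pfkfb3 had 553 to 555 CPM in WT libraries, 469 to 496 in APP/PS1 and 649 to 676 in cKO. It fell by 0.19 ± 0.03 on the log2 scale in APP/PS1 against WT (adjusted p = 3.61e-06; -0.06 with GC and length offsets, adjusted p = 0.0297) and was 0.45 ± 0.03 higher in cKO than in APP/PS1 (adjusted p = 3.39e-13). Pfkfb4 had 47.3 to 50.9, 34.8 to 37.9 and 44.5 to 46.7 CPM in the same order, with log2 changes of -0.43 ± 0.05 and 0.32 ± 0.05 (adjusted p = 2.32e-08 and 3.86e-06). Its change in cKO against WT was -0.11 (adjusted p = 0.0636), -0.13 without WT library 1 (adjusted p = 0.0363), -0.21 with library totals (adjusted p = 0.000387) and -0.31 on TPM (adjusted p = 0.000192).

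Aldolase and triose phosphate isomerase split the sugar and interconvert the products. Aldoa, the ubiquitous aldolase, rose from 323, 346 and 347 CPM in WT libraries to 437, 476 and 474 in the APP/PS1 libraries and 530.3, 558 and 557 in cKO, by 0.45 ± 0.04 and 0.24 ± 0.03 on the log2 scale (adjusted p = 6.44e-11 and 1.93e-06). Aldoc, the aldolase of the brain, which is abundant in astrocytes, had 64.7, 70.7 and 70.4 CPM in WT libraries, 101, 105 and 108 in APP/PS1 and 74.5, 73.1 and 75.9 in cKO. It was highest in APP/PS1, with log2 changes of 0.61 ± 0.04 and -0.49 ± 0.04 (adjusted p = 1.17e-12 and 1.19e-10). The astrocyte marker sums were also highest there, as were those of microglia, oligodendrocytes and neurons. In cKO the astrocyte sum was below WT (755 to 761 against 805 to 812 CPM), while Aldoc averaged 74.5 against 68.6 CPM. The part of astrocytes was not tested. The 0.12 ± 0.04 of Aldoc in cKO against WT (adjusted p = 0.0235) turned to -0.08 on TPM. It lost its call without WT library 1 (0.08, adjusted p = 0.162) or cKO library 3 (0.11, adjusted p = 0.0897). Tpi1 had 89.6, 91.7 and 96.1 CPM in WT libraries, 219.6, 222 and 218 in APP/PS1 and 194, 194 and 187 in cKO. The amyloid groups were both far above WT, by 1.25 ± 0.03 and 1.05 ± 0.03 on the log2 scale (adjusted p = 2.80e-21 and 2.21e-19). The step from APP/PS1 to cKO was -0.20 ± 0.03 (adjusted p = 9.12e-06), and 0.00 on TPM.

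In lower glycolysis, where ATP and pyruvate are made, 5 of the 6 genes rose in APP/PS1 and 4 rose in cKO against APP/PS1. On TPM only Gapdh and Pgk1 were called higher in APP/PS1, since Pgam1 (0.05, adjusted p = 0.169), Pkm (0.10, adjusted p = 0.186) and Eno1 (-0.04, adjusted p = 0.204) missed the threshold and Eno2 was called lower, while all 6 were called higher in cKO against APP/PS1. On the main scale none of the 6 fell in either comparison by edgeR, and none was lower at an unadjusted p under 0.05 or with DESeq2. Gapdh, the dehydrogenase that opens the payoff phase and a common reference transcript in quantitative PCR, was the most abundant member per length in all 3 groups, at 1533 ± 45.6 TPM in WT. It had 850.2, 887 and 902 CPM in WT libraries, 1286, 1345 and 1337 in APP/PS1 and 1635, 1721 and 1683 in cKO. The groups did not overlap, and the log2 changes were 0.59 ± 0.03 in APP/PS1 against WT and 0.34 ± 0.03 in cKO against APP/PS1 (adjusted p = 1.09e-15 and 8.24e-11). Pgk1, the first enzyme of glycolysis to make ATP, had 111, 109 and 110.3 CPM in WT libraries, 238, 245 and 242 in APP/PS1 and 236, 241 and 235 in cKO. Its rise of 1.14 ± 0.03 (adjusted p = 3.03e-21) was present in full in both amyloid groups, which overlapped. The -0.03 ± 0.03 between them (adjusted p = 0.484) turned to 0.17 on TPM and to 0.10 with GC and length offsets.

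Pgam1 and Eno1 encode the mutase and the main enolase that follow. Pgam1 ranged from 115 to 124 CPM in WT libraries, 161 to 165 in APP/PS1 and 199 to 210.3 in cKO, with log2 changes of 0.44 ± 0.03 and 0.32 ± 0.03 (adjusted p = 2.15e-11 and 8.70e-09). Eno1 ranged from 249.7 to 256, 314 to 333 and 404 to 425 CPM, with 0.35 ± 0.03 (adjusted p = 2.73e-10; -0.04 on TPM) and 0.37 ± 0.03 (adjusted p = 6.98e-11; a rise on TPM too). Eno2, the neuronal enolase, was not called on the main scale in any of the 3 comparisons and stayed between 13.8 and 16.2 CPM in the 9 libraries. On TPM its values were -0.42, 0.18 and -0.24 in the 3 comparisons, each past the threshold (adjusted p = 0.000176, 0.0398 and 0.0120), and with library totals it was -0.19 in APP/PS1 against WT (adjusted p = 0.0246). Pkm, the pyruvate kinase that ends glycolysis, had 442, 499.9 and 494 CPM in WT libraries, 613, 719 and 689 in APP/PS1 and 905, 1013 and 974 in cKO. Its libraries spread more than those of Gapdh, Pgk1 or Eno1, yet the groups did not overlap, and the log2 changes were 0.49 ± 0.08 and 0.52 ± 0.08 (adjusted p = 0.00136 and 0.00111). The table does not separate the M1 and M2 isoforms of Pkm. Several of these enzymes, Gapdh foremost, have many processed pseudogenes, and how the authors assigned reads that match more than one copy is not given in the sources used here, so these levels are uncertain to that extent.

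**Figure D2:**
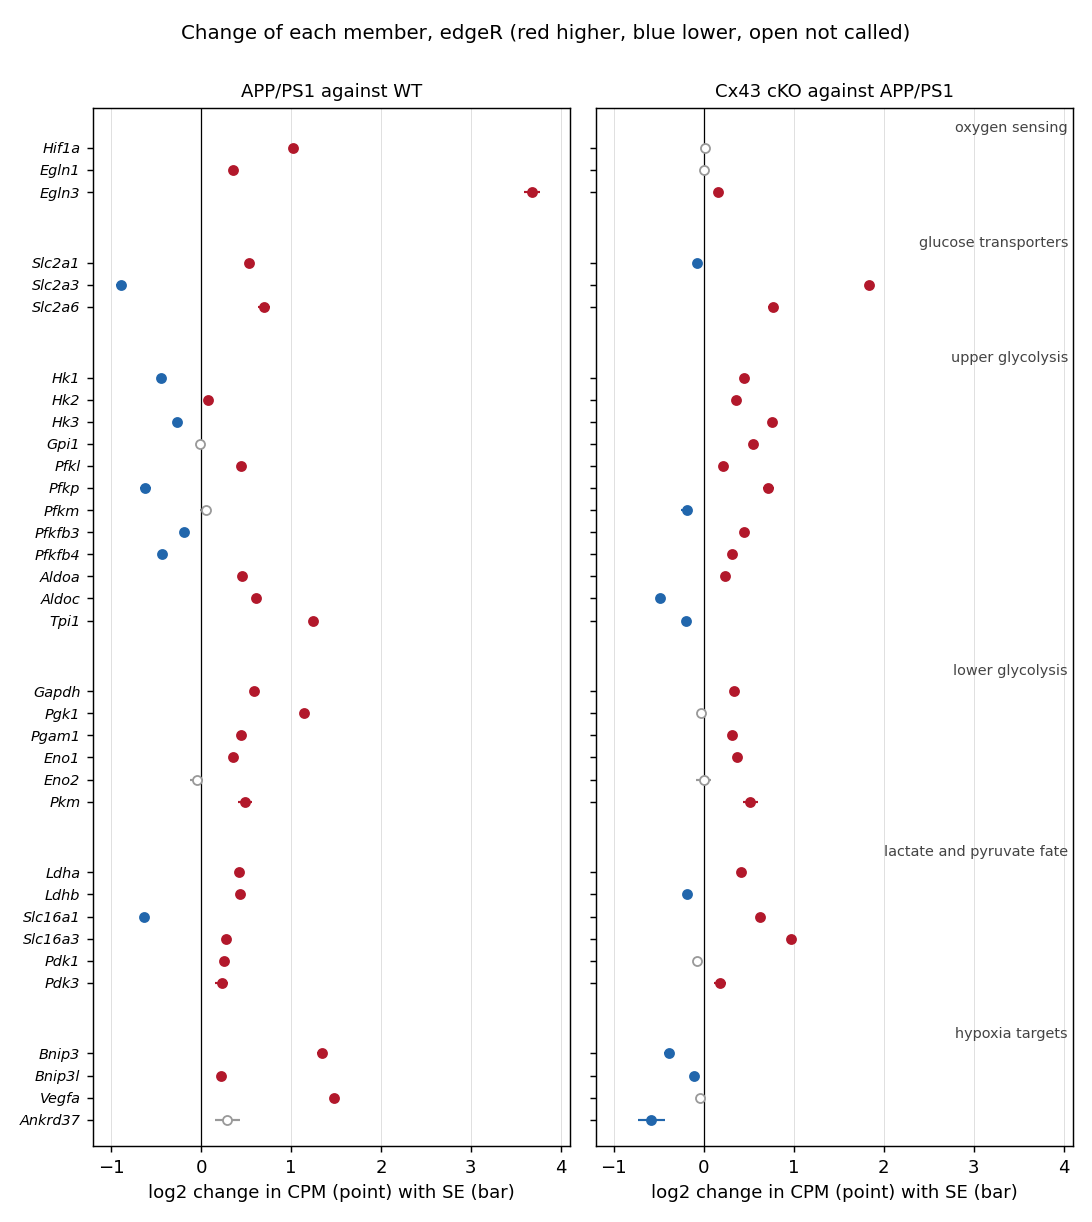
Points are log2 changes in CPM from edgeR with their SE for the 34 members, in APP/PS1 against WT on the left and cKO against APP/PS1 on the right. Filled red points rose, filled blue points fell and open points were not called; both panels use the APP/PS1 libraries. On TPM 7 red points on the left and 4 blue points on the right (Slc2a1, Pfkm, Ldhb and Bnip3l) change sign.

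Of the genes for lactate and the fate of pyruvate, both lactate carriers had larger changes than the rest in cKO against APP/PS1. Slc16a3 encodes MCT4, an exporter of lactate in strongly glycolytic cells and a known hypoxia target. It had 55.6, 57.8 and 55.7 CPM in WT libraries, 67.3, 70.8 and 66.8 in APP/PS1 and 129, 137 and 135 in cKO. The cKO libraries were clear of all the others, with a log2 change of 0.97 ± 0.04 against APP/PS1 and 1.24 ± 0.04 against WT (adjusted p = 1.73e-17 and 1.31e-19). The smaller 0.28 ± 0.04 in APP/PS1 against WT (adjusted p = 3.13e-06) turned to -0.12 on TPM and grew to 0.47 with GC and length offsets (adjusted p = 6.17e-13). Slc16a1 encodes MCT1, a carrier that moves lactate both ways. It had 90.0, 91.8 and 89.9 CPM in WT libraries, 60.0, 58.8 and 57.1 in APP/PS1 and 90.4, 92.2 and 89.4 in cKO. Only APP/PS1 stood apart, at -0.63 ± 0.04 against WT (adjusted p = 1.36e-13). cKO was 0.63 ± 0.04 above APP/PS1 (adjusted p = 1.75e-13) and within 0.00 ± 0.04 of WT (adjusted p = 0.977), which became -0.11 with library totals and -0.19 on TPM.

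Ldha and Ldhb encode the lactate dehydrogenase subunits, of which the first is usually tied to making lactate and the second to using it. On the main scale Ldha rose at each step, from 169, 183 and 186 CPM in WT libraries to 229.7, 239 and 251 in the APP/PS1 libraries and 310.5, 319 and 329 in cKO, by 0.42 ± 0.04 and 0.41 ± 0.04 on the log2 scale (adjusted p = 1.01e-09 and 1.02e-09). The first of these was 0.03 on TPM (adjusted p = 0.571) and 0.27 with GC and length offsets. Ldhb was highest in APP/PS1, at 231, 240.2 and 234 CPM in WT libraries, 311, 326 and 314 in APP/PS1 and 274, 283 and 281 in cKO. Its log2 changes of 0.43 ± 0.03 and -0.18 ± 0.03 (adjusted p = 2.09e-12 and 1.19e-05) turned to -0.05 and 0.20 with GC and length offsets, and on TPM they were 0.04 and 0.02. Pdk1 and Pdk3 encode kinases that switch off pyruvate dehydrogenase and so keep pyruvate out of the mitochondria. Pdk1 ranged from 88.1 to 91.5 CPM in WT libraries, 106 to 109 in APP/PS1 and 98.9 to 106 in cKO. Its rise of 0.25 ± 0.04 in APP/PS1 against WT (adjusted p = 3.50e-06) turned to -0.13 on TPM. The -0.07 in cKO against APP/PS1 (adjusted p = 0.0987; 0.13 on TPM) became -0.11 without cKO library 2 (adjusted p = 0.0224) and -0.13 with GC and length offsets (adjusted p = 0.00236). Pdk3 rose from 15.5 to 18.1 CPM in WT libraries to 18.8 to 20.6 in APP/PS1, by 0.23 ± 0.07 (adjusted p = 0.0106), or -0.15 on TPM. This call was lost without WT library 2 (0.17, adjusted p = 0.0798) or APP/PS1 library 3 (0.20, adjusted p = 0.0541). With library totals it was lost too (0.09, adjusted p = 0.293). The call of Pdk3 in cKO against APP/PS1 (0.18 ± 0.07, adjusted p = 0.0407) was lost without APP/PS1 library 1 or 2 or cKO library 1 or 3 (0.11 to 0.18, adjusted p = 0.140, 0.0730, 0.249 and 0.0726). It was also lost with the DESeq2 Wald test (0.18, adjusted p = 0.111).

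Added up per length, the members held 5678, 5915 and 5951 TPM in the WT libraries, 6059, 6343 and 6303 in APP/PS1 and 8366, 8681 and 8578 in cKO. The step to cKO was thus larger than the step from WT to APP/PS1 on this scale, while the CPM sums averaged 5267, 7001 and 8474. Lower glycolysis held the largest part, at 2686 ± 84.2 TPM in WT, 3048 ± 94.8 in APP/PS1 and 4437 ± 120.4 in cKO. More than 50% of each of these sums was Gapdh alone, at 1533, 1771 and 2563 TPM. Upper glycolysis held 1629.6 ± 46.3, 1529 ± 43.8 and 2082 ± 33.3 TPM. The order of upper glycolysis in WT and APP/PS1 flips with the scale, since its CPM sums were 1908 ± 46.6 and 2112 ± 57.9. The hypoxia targets held 181 ± 1.29, 218 ± 4.94 and 219 ± 4.34 TPM, with the amyloid groups overlapping, while on CPM they were 318 to 330.4 in APP/PS1 and lower, at 289 to 295, in cKO.

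**Figure D3:**
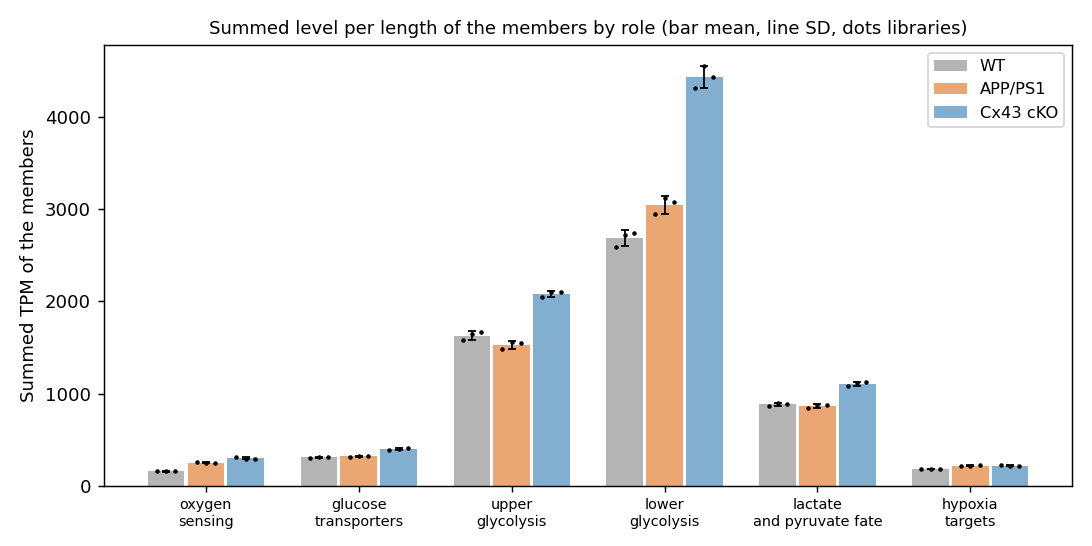
Bars are the mean summed TPM of the members of each role in WT, APP/PS1 and cKO, lines are the SD and dots the 3 libraries. Lower glycolysis is highest in cKO, at 4437 TPM against 3048 in APP/PS1, of which Gapdh alone is 2563 and 1771. Upper glycolysis is lower in APP/PS1 than in WT on this scale but higher on CPM.

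The share of each gene within its family, taken from TPM inside 1 library, does not depend on the scaling between libraries. The shares were not recomputed with the offsets for GC content and length. Each share was compared with a two-sided exact permutation test, which with 3 libraries against 3 cannot go below p = 0.1, so the smallest adjusted p over the 24 tests of the 8 leading genes was 0.133 and none could pass. Ldhb held 62.3% ± 1.01 of lactate dehydrogenase TPM in WT, 62.5% ± 1.13 in APP/PS1 and 52.5% ± 0.487 in cKO (SD, n = 3). The cKO libraries were 51.9% to 52.8% and the other 6 were 61.2% to 63.3%. On the main scale the log2 changes of Ldha and Ldhb were 0.42 and 0.43 in APP/PS1 against WT. In cKO against APP/PS1 they were 0.41 and -0.18. With GC and length offsets they were 0.27 and -0.05, then 0.51 and 0.20. With these offsets Ldha thus stood above Ldhb at both steps, not only in cKO against APP/PS1. Among the glucose carriers Slc2a1 held 86.3% ± 0.537, 90.8% ± 0.155 and 79.6% ± 0.150, and Slc2a3 held 8.95% ± 0.227, 3.52% ± 0.0988 and 11.7% ± 0.108. Slc16a3 held 53.2% ± 0.193 of the lactate carriers in WT, 68.0% ± 0.796 in APP/PS1 and 72.8% ± 0.606 in cKO, without overlap. Pfkl held 57.1% ± 0.868 of phosphofructokinase in WT and 67.8% in both amyloid groups, whose libraries overlapped. In cKO the remainder of that family was shared differently, with Pfkp at 16.6% ± 0.578 against 11.6% ± 0.505 in APP/PS1. Hk2 held 42.9% ± 0.645, 50.2% ± 0.142 and 44.7% ± 1.29 of hexokinase, and Hk3 34.5% ± 0.350 in APP/PS1 and 40.7% ± 0.647 in cKO. Aldoa and Eno1 held at least 88.8% and 95.9% of their families in each library.

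**Figure D4:**
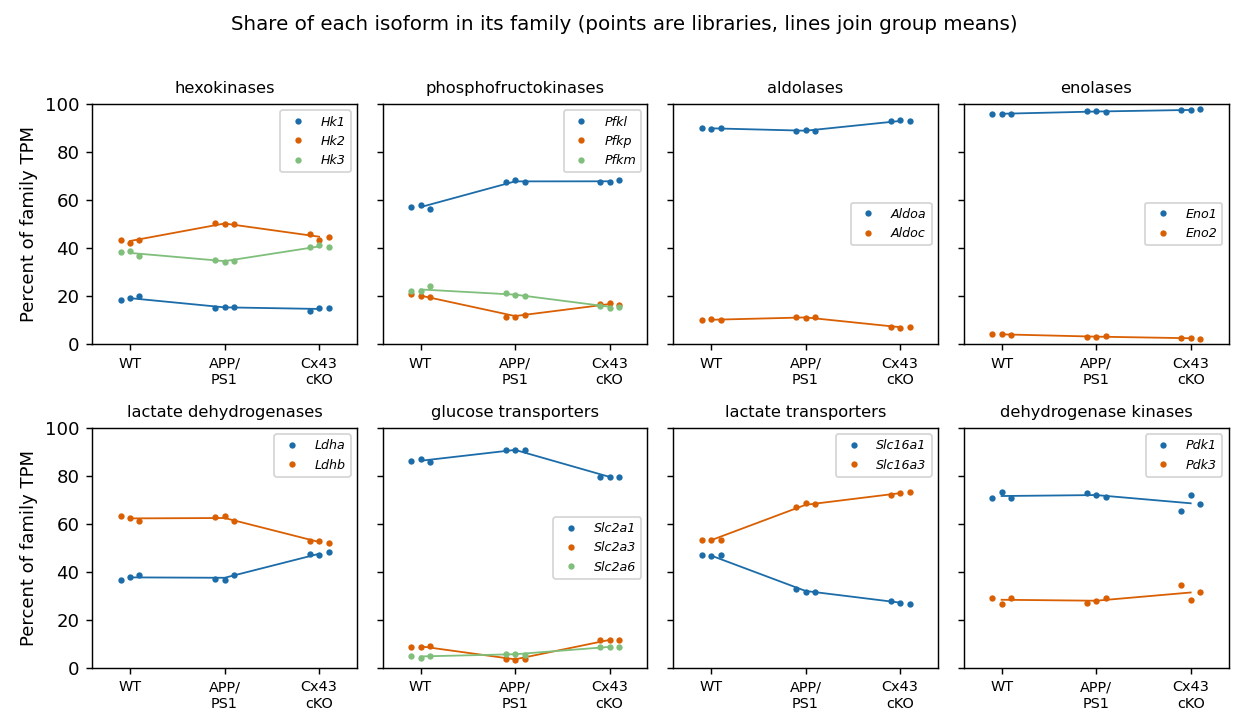
Each panel is a family, and points are the percent of the family's summed TPM held by each gene in each library, with lines joining group means. The Ldha and Ldhb lines approach each other in cKO (47.5% and 52.5%), and Slc16a3 rises from 53.2% in WT to 72.8% in cKO. The shares carry no offsets for GC content and length.

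Slc2a3, Hk1, Hk3, Pfkp, Pfkfb3, Pfkfb4 and Slc16a1 are the 7 members that were lower in APP/PS1 than in WT, and they kept that direction under every scaling tried. With GC and length offsets the falls of Hk1, Hk3, Pfkfb3 and Pfkfb4 shrank to -0.25, -0.11, -0.06 and -0.28, and on TPM they grew to -0.82, -0.65, -0.58 and -0.78. The TPM change of Slc16a1 was -0.99. Their log2 changes in cKO against WT, a comparison without the APP/PS1 libraries, were 0.95, 0.00, 0.49, 0.10, 0.27, -0.11 and 0.00 in that order. On the main scale Slc2a3, Hk3 and Pfkfb3 passed the test there. On TPM Pfkfb3 missed it (0.07, adjusted p = 0.0783), and Hk1, Pfkfb4 and Slc16a1 were called lower (-0.20, -0.31 and -0.19, adjusted p = 0.00348, 0.000192 and 0.000704). With GC and length offsets Pfkp was called higher (0.14, adjusted p = 0.0439). The 15 neutrophil and monocyte markers were all lower in APP/PS1 than in WT and all higher in cKO than in APP/PS1, and against WT 12 were higher and 2 lower in cKO. Several of the 7 genes are expressed in leukocytes, and the part of those cells in these values was not tested.

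**Figure D5:**
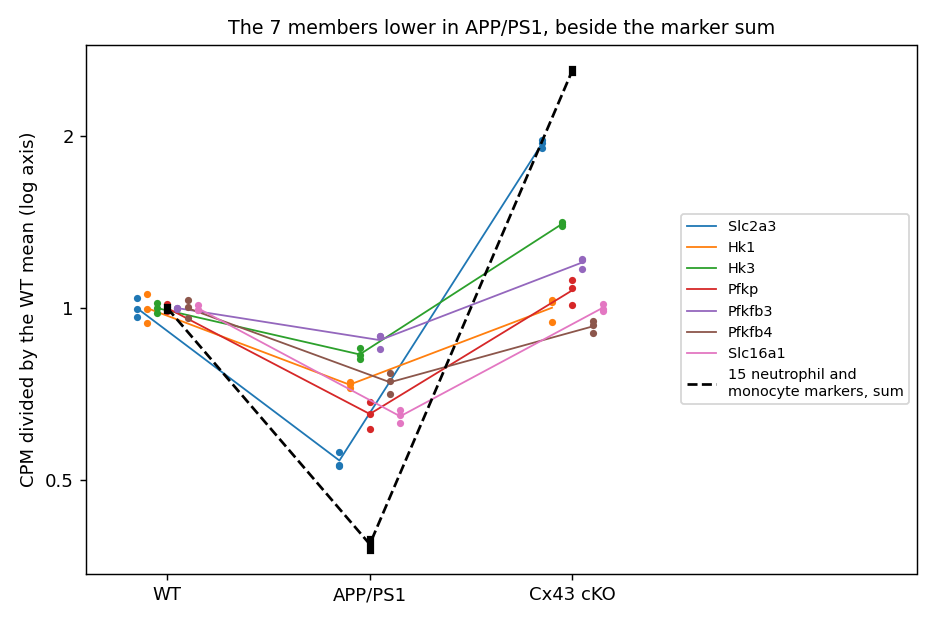
Points are CPM of single libraries over the WT mean, on a log axis, for the 7 members lower in APP/PS1, with lines joining group means; the dashed line is the summed CPM of 15 neutrophil and monocyte markers and its thick marks span the libraries. In APP/PS1 all 7 lie below WT, and in cKO Slc2a3 and the marker sum lie highest.

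Other genes of these pathways were mixed, and their counts below stand against 59.0% of all genes called in APP/PS1 against WT, 55.0% in cKO against APP/PS1 and 47.7% in cKO against WT. Of 15 further glycolytic enzymes tested of 20 listed, 3 rose and 5 fell in APP/PS1 against WT, and 2 rose and 3 fell in cKO against APP/PS1, or 53.3% and 33.3% called. On TPM 1 was called higher and 8 lower in the first comparison, and the second turned to 7 called, each higher; it also turned with library totals (3 and 2) and with GC and length offsets (5 and 3). Adpgk, a glucokinase that uses ADP in place of ATP, had 50.5, 51.1 and 54.0 CPM in WT libraries, 20.8, 21.5 and 23.0 in APP/PS1 and 121, 121 and 126 in cKO. It was lowest in APP/PS1 and highest in cKO without overlap, with log2 changes of -1.25 ± 0.05 and 2.49 ± 0.05 (adjusted p = 2.89e-17 and 1.20e-24). Of 11 further glucose and lactate carriers, 5 rose and 2 fell in the first comparison and 3 rose and 5 fell in the second (63.6% and 72.7% called), and on TPM the majorities turned, to 3 and 7 and to 5 and 1. Emb, the chaperone embigin that brings lactate carriers to the membrane, had log2 changes of -1.15 ± 0.05 and 1.75 ± 0.05 (adjusted p = 5.08e-16 and 2.14e-20).

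The pentose phosphate pathway, which branches off at glucose 6-phosphate and supplies NADPH, had 3 genes higher and 5 lower of 10 in APP/PS1 against WT. In cKO against APP/PS1, 5 were higher and 2 lower, so that 80% and 70% were called. On TPM 1 was called higher and 7 lower in the first comparison, and the 6 called in the second were each higher. G6pdx, its first enzyme, had 81.4, 89.5 and 92.7 CPM in WT libraries, 55.7, 60.4 and 63.0 in APP/PS1 and 145, 161 and 160.4 in cKO. As with Slc2a3, the groups did not overlap and APP/PS1 was lowest. Its log2 changes were -0.56 ± 0.06 and 1.38 ± 0.06 (adjusted p = 2.27e-07 and 5.52e-13), the first of them -0.94 on TPM. Tkt and Pgd, enzymes further along, were 1.00 ± 0.03 and 0.73 ± 0.04 higher in cKO than in APP/PS1 (adjusted p = 4.13e-20 and 1.13e-15). The 12 genes for pyruvate entry into mitochondria went 5 higher and 4 lower in the first comparison and 1 higher and 5 lower in the second (75% and 50% called). Their splits were 4 and 8, and 4 and 4, on TPM, and 4 and 6 in the first comparison with library totals. Mpc1, a subunit of the mitochondrial pyruvate carrier, rose from 76.0 to 86.5 CPM in WT libraries to 179.9 to 192 in the APP/PS1 libraries and was 113 to 124 in cKO (log2 changes 1.17 ± 0.04 and -0.64 ± 0.04, adjusted p = 6.51e-17 and 5.09e-12). With GC and length offsets these changes of Mpc1 shrank to 0.62 and -0.21.

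Of 16 regulators of HIF, 6 rose and 7 fell in APP/PS1 against WT, and 2 rose and 7 fell in cKO against APP/PS1 (81.2% and 56.2% called). On TPM the split was 4 and 12 in the first comparison and turned to 8 and 5 in the second. With GC and length offsets the first split turned to 7 and 4. Elob, Eloc and Rbx1 are parts of the VHL ubiquitin ligase that removes HIF-1α. They are named as the largest called changes of this list, whose median in APP/PS1 against WT was -0.03. They rose in APP/PS1 by 1.16 ± 0.05, 1.18 ± 0.05 and 1.00 ± 0.05 on the log2 scale (adjusted p = 5.74e-17, 3.57e-17 and 3.26e-16). The other parts of that ligase are not described here. In cKO against APP/PS1 the same genes fell by 0.85 ± 0.05, 0.82 ± 0.05 and 0.78 ± 0.05. With GC and length offsets the changes of Elob shrank to 0.76 and -0.48, and on TPM the rises of Elob, Eloc and Rbx1 were 0.76, 0.83 and 0.59. Epas1, which encodes HIF-2α and is abundant in vessels, fell by 0.74 ± 0.04 in cKO against WT (adjusted p = 1.23e-15), where the sum of 11 vessel markers was 655 to 672 CPM against 847 to 863 in WT. The part of vessel cells was not tested. Of 33 other hypoxia-inducible genes tested of 35 listed, 14 rose and 11 fell in APP/PS1 against WT, with a median log2 change of -0.08. In cKO against APP/PS1, 13 rose and 9 fell, with a median of 0.08, and in cKO against WT 13 rose and 7 fell, with a median of 0.04. The shares called were 75.8%, 66.7% and 60.6%, and on TPM the splits were 8 and 20, 19 and 6, and 11 and 17. Lox, a collagen cross-linking enzyme, and Mif, a cytokine, rose in APP/PS1 by 1.5 ± 0.08 and 1.32 ± 0.06 (adjusted p = 1.60e-15 and 5.15e-15), and by 0.98 and 0.92 on TPM. Nos2, the inducible nitric oxide synthase, had 1.13 to 1.86 CPM in WT libraries, 0.492 to 0.861 in APP/PS1 and 24.3, 30.0 and 27.7 in cKO. Only the cKO libraries held an appreciable level of Nos2, with a log2 change of 5.38 ± 0.16 against APP/PS1 (adjusted p = 1.23e-19), or 3.5 on TPM. Cxcr4, a chemokine receptor of leukocytes, averaged 43.4, 62.0 and 123 CPM in WT libraries, APP/PS1 and cKO and was 0.99 ± 0.04 higher in cKO than in APP/PS1 (adjusted p = 1.61e-17).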

How the data were processed

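Groups follow the genotype labels of the 9 libraries. Reads were single-end and 50 nt long, per the labels' protocols. The submitters' processing notes name HISAT, Bowtie2, DESeq2 and GRCm38.p6 without giving their roles. Per the file headers, the deposited table lists 4 values for each library, namely the estimated count, FPKM, TPM and normalised count. The deposited estimated counts were not scaled between libraries. The deposited normalised counts are a signal scaled by the authors with a single factor per library. The FPKM values deposited by the authors are scaled to transcript length and library size, and the TPM values deposited by the authors are per length within a library.

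Estimated counts were rounded and tested with the edgeR 4.0.16 quasi-likelihood test (R 4.3.3) with TMM scaling and filterByExpr. One model with a mean for each group was fitted to all 9 libraries. P-values were adjusted by Benjamini-Hochberg over all 14696 tested genes and called under 0.05. CPM uses the TMM-scaled library sizes, and levels of different genes are compared only in TPM. Counting error is small at 18907681 to 19565354 counts per library for all but the genes of lowest level.

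The members, pathway lists, marker lists and tests were chosen with earlier results of these data known. All members may be named. Of each pathway list, up to 3 called genes with the largest absolute log2 change and a mean of at least 1 CPM per comparison may be named, plus Gja1, Cx3cr1 and Ddx3y. The promoters shown were chosen after the changes were seen.

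The alternatives were DESeq2 size factors, library totals, limma-trend on log2(TPM + 1), the DESeq2 1.42.0 Wald test, limma-voom (limma 3.58.1), other filters on low counts, only the groups compared, the replicate number as a block, offsets over 10 GC bins and 10 length bins (transcripts of GENCODE M21) with and without the block, stricter thresholds, leaving out each library, and for shares FPKM and counts without length. TPM centred on the median of all genes was added after seeing the data. The steps were tested on simulated data.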

Additional observations from a re-analysis of the deposited data

How the results depend on the processing

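Under DESeq2 size factors, the DESeq2 Wald test, limma-voom, both other filters on low counts, a stricter adjusted p of 0.01, only the groups compared and GC and length offsets, the counts of members called and the members' median changes stayed close to those reported. Requiring at least a 1.5-fold change left 12 members in APP/PS1 against WT, 6 in cKO against APP/PS1 and 16 in cKO against WT, against 19.3%, 17.5% and 12.8% of all genes. With library totals the members' median became 0.21 in APP/PS1 against WT and 0.41 in cKO against WT. On TPM it turned to -0.04 in APP/PS1 against WT and became 0.42 in cKO against APP/PS1 and 0.31 in cKO against WT, where the median of all genes also moved. Centred on that median, the TPM values were 0.31, 0.27 and 0.48. Leaving out each library gave 28 to 30, 25 to 28 and 26 to 28 members called in the 3 comparisons.

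Among members called on the main scale or under the alternative, values turned on TPM in APP/PS1 against WT (Egln1 -0.04, Hk2 -0.29, Pfkm -0.32, Eno1 -0.04, Slc16a3 -0.12, Pdk1 -0.13, Pdk3 -0.15 and Bnip3l -0.18), in cKO against APP/PS1 (Slc2a1 0.13, Pfkm 0.00, Pgk1 0.17, Eno2 0.18, Ldhb 0.02, Pdk1 0.13, Bnip3l 0.09 and Vegfa 0.15) and in cKO against WT (Hk1 -0.20, Aldoc -0.08, Slc16a1 -0.19 and Bnip3l -0.09). With library totals Hk2 turned to -0.06 in APP/PS1 against WT and Slc16a1 to -0.11 in cKO against WT. With GC and length offsets, with and without the replicate block, Ldhb turned to -0.05 in APP/PS1 against WT, and Egln1 to -0.13, Pgk1 to 0.10 and Ldhb to 0.20 in cKO against APP/PS1. Gpi1 turned to 0.08 in APP/PS1 against WT with these offsets, and was called with the block only. Values called under neither setting turned for Ankrd37 in APP/PS1 against WT (-0.06 on TPM and -0.22 with the offsets), Pfkm in APP/PS1 against WT (-0.09 with library totals) and Pfkp in cKO against WT (-0.06 on TPM), among others. The cause was not tested.

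From counts without length, differences in share became -1.61, 6.47 and 4.87 percentage points for Aldoa and 1.36, 0.974 and 2.33 for Eno1 in the 3 comparisons. They became 7.16 for Slc2a1 in APP/PS1 against WT, -14.2 for Slc2a1 in cKO against APP/PS1 and 21.2 for Slc16a3 in cKO against WT. These values differ by construction, since longer genes weigh more.

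The labels do not say what a shared replicate number means. Deviations of same-numbered libraries from their group means correlated at 0.0618 to 0.264 in 9 pairs, against -0.263 to 0.0829 in 18 other pairs, and in 17 of 18 comparisons a library correlated best with its own number. Not every pair exceeded 0.1, so the numbers were not taken to pair the libraries. With the replicate block the members higher and lower were 23 and 7, 20 and 9, and 27 and 2. Pdk1 became called lower in cKO against APP/PS1, and Pfkm and Pfkfb4 in cKO against WT. The genes called were 9319, 8851 and 7934, and the coefficient of variation fell to 0.988%.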

Other observations

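Library 1 had the lowest CPM of its group in all 3 groups for 11 of the 34 members (32.4%), against 10.9% of all tested genes. These members were Slc2a1, Slc2a3, Hk1, Gpi1, Pfkl, Aldoa, Gapdh, Eno1, Pkm, Ldha and Ldhb. For Pkm the value of library 1 was 442 CPM in WT libraries, 613 in APP/PS1 and 905 in cKO, each below both other libraries of its group.

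The order of the members by level per length also differed between groups. Per length Tpi1 averaged 140.3 TPM in WT and ranked below Gpi1 (254 TPM), and in APP/PS1 it averaged 254 TPM and ranked above Gpi1 (192 TPM). In cKO, Gpi1 (322 TPM) was again above Tpi1 (254 TPM).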
